A study of Mus musculus with 8 samples.

Results

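Abundant long noncoding RNAs are described here through 7 genes, Neat1, Malat1, Meg3, H19, Gas5, Snhg1 and Snhg12. They were chosen by gene symbol in the deposited count table, where all 7 were found among 25239 symbols. The list carries the label abundant, so their levels are given as a description and the level of a gene is not itself a finding. By share of all counts, which is not corrected for transcript length, the label held for some members and not for others. Malat1 ranked 76 and Neat1 ranked 203 of 25239 symbols, and among 2176 annotated long noncoding RNAs they ranked 1 and 3, with Xist between them. Gas5 ranked 4382 of all symbols and was 15th among the long noncoding RNAs. Snhg1, Meg3, Snhg12 and H19 ranked 9328, 9523, 10533 and 10975 of all symbols, with means of 9.58, 8.70, 4.97 and 3.58 CPM (reads of a gene scaled to a library of one fixed size), so they were not abundant in these cells. Among the long noncoding RNAs as annotated, 39 reached a mean of 10 CPM. That set also held Ifi30, Cct6a, Zswim6 and Tmem134, at ranks 5, 6, 7 and 12, which are known as protein genes. The place of Gas5 and the totals of 2176 and 39 thus include some protein genes.

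The libraries hold polyadenylated RNA from primary cells of mouse skull bone (calvaria) that are labelled as osteoblasts. There were 4 libraries labelled KO, with the genotype KO(OSX-SphK2), and 4 control libraries labelled WT and described as littermates. SphK2 is sphingosine kinase 2, and Osx, or osterix, is made by the Sp7 gene in cells on their way to becoming osteoblasts, so other cells of the same culture need not carry the deletion. Age, sex and strain, and how many animals stand behind a library, are not given in the sources used here, so p-values measure the spread between libraries, which may be technical. By its title the study asks whether osteoblasts steer the development of neutrophils.

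Total counts ran from 14347495 to 17928713 in the KO libraries and from 14571389 to 19065421 in the control libraries. Sphk2 itself stood at 69.7, 72.3, 72.1 and 131.1 CPM in the libraries labelled KO, against 75.8, 64.2, 82.5 and 133.8 CPM in the controls, so the targeted gene did not set the groups apart. Its log2 fold change was -0.05 ± 0.30 (SE), with an adjusted p of 0.9999 by edgeR's quasi-likelihood test with Benjamini-Hochberg adjustment. The counts do not show which part of the gene they come from. The 13 macrophage markers summed to 31933 to 53503 CPM in KO libraries and 32245 to 42430 CPM in controls. That was above the sum of the 13 osteoblast markers in every library, which was 4412 to 16280 CPM in KO and 6808 to 17303 CPM in controls. Bglap, the osteocalcin gene of mature osteoblasts, was at 42.3 CPM in KO1 and at most 0.582 CPM in the other 7 libraries. The libraries numbered 4 stood apart in both groups. Their 8 osteoclast markers summed to 6559 CPM in KO4 and 9890 CPM in control4, against 52.6 to 74.1 CPM in the other KO libraries and 44.8 to 128.5 CPM in the other controls. Neutrophil markers summed to at most 3.64 CPM. Xist, which is transcribed from the inactive X chromosome, stood at 1192, 1126, 0.611 and 729 CPM in KO1 to KO4 and at 1252, 1338, 0.524 and 0.420 CPM in control1 to control4. The Y-linked Ddx3y was at 103.3 CPM in KO3, and at 90.8 and 44.6 CPM in control3 and control4, with at most 2.91 CPM in the other 5 libraries. Within pairs 1 to 3 the KO and control library were thus close in Xist, and KO4 and control4 were not. Control1 held low levels of 4 Y-linked transcripts, 0.847 to 2.91 CPM, against at most 0.062 CPM in KO1. In bulk RNA of this kind, fewer cells of a type and less RNA per cell cannot be told apart.

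Long noncoding RNAs act as RNA rather than through a protein. Neat1 is the scaffold on which paraspeckles are built, nuclear bodies that hold RNA-binding proteins such as NONO and SFPQ, and its neighbour Malat1 collects in nuclear speckles, where splicing factors are stored. Meg3 and H19 are imprinted and expressed from the maternal chromosome, Meg3 in the domain that also holds Dlk1, Rtl1 and Rian, and H19 beside Igf2. Gas5, Snhg1 and Snhg12 carry small nucleolar RNAs (snoRNAs) in their introns, which guide the chemical modification of ribosomal and other RNAs. Their spliced remainders start with a run of pyrimidines, the terminal oligopyrimidine (TOP) motif they share with the mRNAs of ribosomal proteins, and are short-lived because translation exposes them to nonsense-mediated decay. In bone, Meg3 and H19 have been studied in osteogenic differentiation, and Neat1 and Malat1 in the formation of osteoclasts.

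The starts of the genes are shown because the snoRNA hosts and the TOP mRNAs are compared below. RefSeq promoter windows on GRCm38.p6 were available for 5 of the 7 genes, namely Gas5, Snhg12, Snhg1, Meg3 and Malat1, and Neat1 and H19 had no entry. Each line gives 150 bases, 100 before the annotated start and 50 from it, read 5′ to 3′ on the strand of the gene. Capitals mark the octamer TGACGTCA, which is the cAMP response element and reads the same on both strands, and any C followed by at least 4 pyrimidines that begins within 5 bases of the start on the gene's strand. Gas5 and Meg3 each have a further RefSeq start with neither motif, which is not shown.
Gas5, chr1:161035066-161035215, plus strand: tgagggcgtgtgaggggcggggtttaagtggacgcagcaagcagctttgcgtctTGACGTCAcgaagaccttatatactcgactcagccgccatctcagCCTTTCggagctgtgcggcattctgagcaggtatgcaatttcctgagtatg
Snhg12, chr4:132308578-132308727, plus strand: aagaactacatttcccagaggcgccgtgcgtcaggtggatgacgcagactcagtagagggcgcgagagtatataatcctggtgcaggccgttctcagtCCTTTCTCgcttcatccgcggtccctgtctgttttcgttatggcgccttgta
Snhg1, chr19:8723387-8723536, plus strand: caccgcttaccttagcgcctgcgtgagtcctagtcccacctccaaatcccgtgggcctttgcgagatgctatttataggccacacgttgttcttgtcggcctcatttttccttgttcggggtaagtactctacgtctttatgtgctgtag
Meg3, chr12:109540896-109541045, plus strand: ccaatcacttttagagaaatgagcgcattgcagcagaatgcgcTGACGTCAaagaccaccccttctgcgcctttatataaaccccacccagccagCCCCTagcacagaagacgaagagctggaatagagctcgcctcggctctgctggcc
Malat1, chr19:5802623-5802772, minus strand: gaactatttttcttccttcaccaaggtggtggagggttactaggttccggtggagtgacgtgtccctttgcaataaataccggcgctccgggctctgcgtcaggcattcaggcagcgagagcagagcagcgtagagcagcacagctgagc

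The pyrimidine run was 6 bases long at the Gas5 start, 8 at Snhg12 and 5 at Meg3. The run at Snhg1 had 4 bases and was too short to be marked, and that at Malat1 had 1. Of all 32851 RefSeq windows, 18.3% held such a run, so its presence alone is common. The octamer began 46 bases before the Gas5 start and 57 bases before the Meg3 start. It was found in 588 of the 32851 windows (1.79%), each searched over 300 bases. The letters TATA, which also read the same on both strands, lay between 40 and 20 bases before the start in Gas5, Snhg12, Snhg1 and Meg3, and in 5.49% of all windows. A match in these windows describes the letters and not the binding of any factor.

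The 3′ ends of Neat1 and Malat1 are shown because the libraries were made from polyadenylated RNA. The annotation (GENCODE M21, GRCm38) gives a short Neat1 transcript of 3004 bases, Neat1-202, and a long one of 20771 bases, Neat1-201. Each line gives the last 80 bases, with capitals on the polyadenylation signal AATAAA or, where there is none in the 80 bases, on the A-rich end of the transcript.
Neat1-202, chr19:5842307-5842386, minus strand: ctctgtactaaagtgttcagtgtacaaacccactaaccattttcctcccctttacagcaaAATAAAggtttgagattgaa
Neat1-201, chr19:5824708-5824787, minus strand: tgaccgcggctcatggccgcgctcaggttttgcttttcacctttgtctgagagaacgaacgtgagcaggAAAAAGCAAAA
Malat1-201, chr19:5795690-5795769, minus strand: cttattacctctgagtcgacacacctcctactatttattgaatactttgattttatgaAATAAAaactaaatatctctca

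The short Neat1 form carried AATAAA starting 20 bases from its end, and the annotated Malat1 form carried it 22 bases from its end. The long Neat1 form ended in AAAAAGCAAAA. The same 10 letters AAAAGCAAAA lay 292 bases before the end of the annotated Malat1 transcript. In both RNAs such an A-rich tract is known as the site where a triple helix protects a 3′ end that is made by RNase P and not polyadenylated. How far selection of poly(A) RNA caught the long Neat1 form cannot be read from counts per gene, so all Neat1 values below sum over its forms.

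The 7 RNAs together took 0.106% to 0.250% of all counts in KO libraries and 0.128% to 0.292% in control libraries. Per kilobase of the longest annotated transcript, the level averaged over 8 libraries was 142.6 CPM for Malat1, 26.1 for Neat1, 19.5 for Gas5, 3.51 for Snhg1, 3.23 for Snhg12, 1.57 for H19 and 0.598 for Meg3. The order of the first 4 was the same with the shortest transcript or with the union of exons, whereas Meg3 moved to the fifth place with the shortest transcript. The Neat1 level depends strongly on this choice, since it was 763 CPM per kilobase with the shortest transcript.

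In the model of genotype alone over 8 libraries, none of the 7 RNAs passed the adjusted p threshold of 0.05, where 0.0% of the 12837 genes tested passed (0 higher and 0 lower). At an unadjusted p under 0.05 there were 631 genes, 410 higher and 221 lower. DESeq2 called 127 higher and 49 lower, and limma-voom 0 in each direction. All 7 passed the filter on low counts. All 7 log2 fold changes, KO over control, were negative, as were those of 6844 of the 12837 genes tested. The median of the 7 was -0.31 against -0.02 over all genes tested. The log2 fold change of Malat1 was -0.00 and turned positive with library totals alone, with upper-quartile factors and without the filter. Libraries with the same number tended to deviate together, though not in every case more than libraries of unlike number. A model with the number as a block is therefore given where it changes a call, and the pairing in it is an assumption. With the block, 1 of 7 was called lower, Neat1, where 1.18% of all genes were called lower. In the libraries numbered 1 to 3 alone, 3 of 7 were called lower, Neat1, Meg3 and Gas5, where 6.29% of all genes were called lower. Leaving out number 4 was decided with earlier results of these data known.

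**Figure D1:**
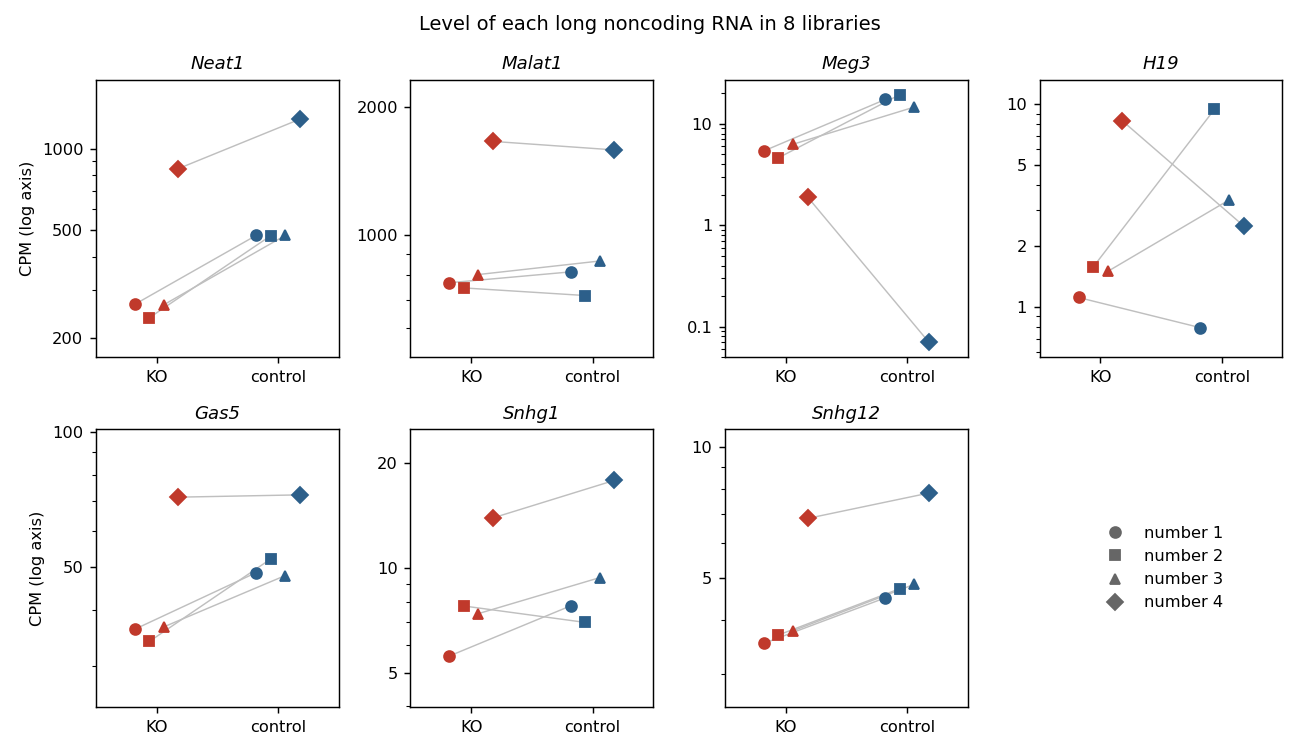
Level of each of the 7 RNAs in CPM (log axis) in the 4 KO libraries (red, left) and the 4 control libraries (blue, right), with a line joining libraries of the same number. Neat1, Gas5 and Snhg12 lie lower in KO in 4 of 4 pairs, and 5 RNAs are highest in number 4 in both groups.

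Counted pair by pair, Neat1, Gas5 and Snhg12 were lower in KO in 4 of 4 pairs, as were 13.4% of all genes tested. In the libraries numbered 1 to 3, the KO and control levels did not overlap for Neat1, Meg3, Gas5 and Snhg12, with KO lower, as was so for 16.5% of all genes. The same 4 were lower in KO in each of pairs 1 to 3, as were 28.0% of all genes. Over all 8 libraries the groups overlapped for every one of the 7, where 1.27% of all genes had no overlap with KO lower. Neat1, Malat1, Gas5, Snhg1 and Snhg12 were higher in number 4 than in numbers 1 to 3 in both groups, as were 37.6% of all genes. Meg3 was lower in number 4 than in the rest in both groups, as were 36.7% of all genes. The osteoclast marker sum was also high in both libraries numbered 4, and its part in these levels was not tested.

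Neat1 was lower in KO than in the control of the same number in each of the 4 pairs, by about the same proportion. The gene lies at chr19:5824708-5845478 on the minus strand of GRCm38 and is annotated as intergenic, with 4 transcripts. It stood at 265.9, 237.2, 265.1 and 847 CPM in KO1 to KO4, against 479, 478, 479 and 1291 CPM in control1 to control4, from 4287 to 18458 counts per library. Both groups held 3 libraries close together and number 4 far above them, and KO4 lay above the lower 3 controls. In numbers 1 to 3 the mean was 256 ± 16.4 CPM in KO and 478 ± 0.683 CPM in control (SD, n = 3 each). The control SD is smaller than the counting error of 8225 to 9047 counts, so it understates the spread between libraries. The KO level was 0.555, 0.497, 0.554 and 0.656 times that of the control in pairs 1 to 4.

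Over all libraries Neat1 averaged 404 ± 296 CPM in KO and 682 ± 406 CPM in control (SD, n = 4 each). The log2 fold change was -0.76 ± 0.54 (SE), with an adjusted p of 0.9999 by edgeR's quasi-likelihood test with Benjamini-Hochberg adjustment. This value rested on the libraries numbered 4, since it was -1.41 without KO4 and -0.25 without control4, and between -0.89 and -0.57 without any other library. With the number as a block it was -0.83 ± 0.08, with an adjusted p of 0.0328, a fold of 0.563 with a 95% interval of 0.491 to 0.645. That call was lost when number 1, 2 or 3 was left out of the block model, with adjusted p of 0.168, 0.253 and 0.337, while the log2 fold change stayed between -0.82 and -0.76. Without number 4 it was -0.90 ± 0.07, with an adjusted p of 0.000204 by the same test without a block. Permuting the 8 libraries' log2 CPM in an exact two-sided test gave p = 0.114, where 4 against 4 allows no p below 0.0286.

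Malat1 did not differ between the groups beyond their spread. The gene, at chr19:5795690-5802672 on the minus strand of GRCm38, is annotated as intergenic and lies 22035 bases from Neat1. It stood at 769, 747, 804 and 1662 CPM in KO1 to KO4, against 816, 717, 866 and 1587 CPM in control1 to control4. As with Neat1, number 4 was the highest library of each group, and the KO and control values overlapped throughout. The means were 996 ± 445 CPM in KO and 996 ± 398 CPM in control (SD, n = 4 each), and the ratio within pairs ran from 0.929 to 1.05. The log2 fold change with the block was -0.02 ± 0.07, with an adjusted p of 0.923 by edgeR's quasi-likelihood test with Benjamini-Hochberg adjustment. Its 95% interval was a fold of 0.881 to 1.11.

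The pair of neighbours thus differed in their proportion to each other. Neat1 had 0.346, 0.317, 0.330 and 0.510 counts per Malat1 count in KO1 to KO4, against 0.587, 0.666, 0.553 and 0.813 in control1 to control4. Every KO library lay below every control library in this ratio, number 4 included. Of all 12836 other genes taken per Malat1 level in the same way, 0.958%, Neat1 among them, were lower in KO with no overlap. The ratio was chosen after its values were seen and is given without a test.

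**Figure D2:**
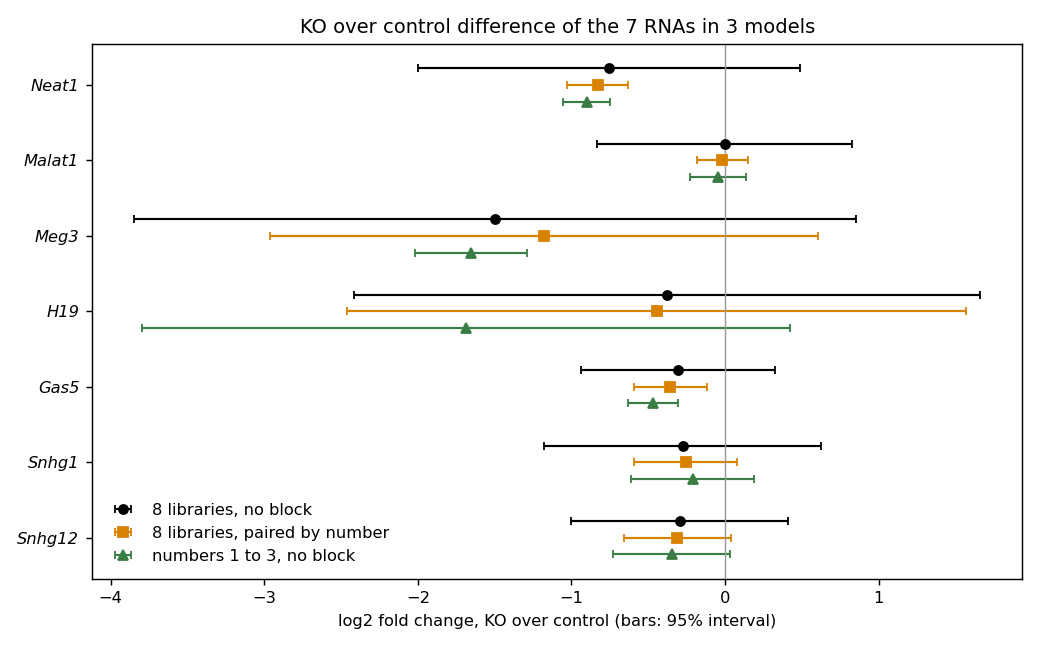
Log2 fold change, KO over control, of each RNA with its 95% interval in 3 edgeR models, over 8 libraries without a block (black circles), over 8 libraries paired by number (orange squares) and in numbers 1 to 3 without a block (green triangles). The interval of Neat1 narrows from the first model to the others and leaves 0, and that of Malat1 stays around 0 in all 3.

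Among the proteins that meet Neat1 in paraspeckles, 1 passed the threshold, in 1 of 4 models. Of 16 paraspeckle proteins, 16 were tested, and 0 were called in either direction over 8 libraries, with or without the block, or in numbers 1 to 3 without it. With the block in numbers 1 to 3, 1 of the 16 was called higher, Hnrnpm, where 12.3% of all genes were called higher. Over 8 libraries without the block their log2 fold changes were positive for 13 of 16, as for 5993 of 12837 genes tested. The median of the 16 was 0.04 against -0.02 over all genes. Nono stood at 254, 263, 241 and 242.5 CPM in KO1 to KO4, against 232, 252, 244 and 246 CPM in control1 to control4. The 4 members with the smallest unadjusted p were Hnrnpm, Tardbp, Rbm14 and Pspc1, and Hnrnpm, an RNA-binding splicing factor, had a log2 fold change of 0.11 ± 0.13. In numbers 1 to 3 with the block that of Hnrnpm was 0.16 ± 0.05, with an adjusted p of 0.0463 by edgeR's quasi-likelihood test with Benjamini-Hochberg adjustment. Of 18 nuclear speckle proteins, 0 were called with or without the block, and the median log2 fold change was -0.00. Ddx39b, an RNA helicase of mRNA export, was the single one called lower in numbers 1 to 3, where 6.29% of all genes were. With the block in those numbers Tra2a, a splicing factor, was called lower too, where 11.9% of all genes were. For Ddx39b without the block the log2 fold change was -0.22, with an adjusted p of 0.0259 by the same test.

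Of the genes around Neat1 and Malat1 on chromosome 19, Frmd8 had a log2 fold change of 0.19 in numbers 1 to 3 and was not called. Ltbp3, which binds latent TGF-beta in the matrix, stood at 85.2, 102.6, 94.9 and 160.2 CPM in KO1 to KO4, against 131.5, 170.2, 150.4 and 139.6 CPM in control1 to control4. KO was lower in pairs 1 to 3 and higher in pair 4. Its log2 fold change in numbers 1 to 3 was -0.67 ± 0.10, with an adjusted p of 0.00426 by edgeR's quasi-likelihood test with Benjamini-Hochberg adjustment. Over all 8 libraries it was -0.42 ± 0.21, with an adjusted p of 0.9999 by the same test.

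Meg3 was lower in KO in pairs 1 to 3 and at 1 count in control4. The gene lies at chr12:109541001-109571726 on the plus strand of GRCm38, with 11 transcripts. It stood at 5.40, 4.62, 6.28 and 1.89 CPM in KO1 to KO4, against 17.4, 19.4, 14.6 and 0.0699 CPM in control1 to control4. Without number 4 every KO library lay below every control library, and in number 4 the order was turned. Behind the values of number 4 stand 26 counts in KO4 and 1 count in control4, a ratio of 27.1 with an exact 95% interval of 4.45 to 1110 that covers counting error only. Within pairs 1 to 3 the KO level was 0.311, 0.238 and 0.430 times that of the control.

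Over 8 libraries Meg3 averaged 4.55 ± 1.89 CPM in KO and 12.9 ± 8.75 CPM in control (SD, n = 4 each). The log2 fold change was -1.497 ± 1.02, with an adjusted p of 0.9999 by edgeR's quasi-likelihood test with Benjamini-Hochberg adjustment. With the block it was -1.18 ± 0.69, with an adjusted p of 0.410 by the same test. The size varied with the tool and the libraries. Without the block it was -0.34 by limma-voom, -1.51 by DESeq2 and -1.91 by edgeR without control4. With the block it was -1.53 by limma-voom, -0.73 by DESeq2 and -0.69 by edgeR without number 2. In numbers 1 to 3 it was -1.65 ± 0.16, with an adjusted p of 0.000513, a fold of 0.318 with a 95% interval of 0.247 to 0.409. The same exact permutation test over 8 libraries gave p = 0.914 for a difference of -0.37, which weighs the value of control4 more than a mean of CPM does.

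Rian, another RNA of the domain and 32213 bases from Meg3, was likewise lower in KO in pairs 1 to 3 and higher in KO in pair 4. It stood at 4.28, 5.43, 5.78 and 1.17 CPM in KO1 to KO4, against 12.6, 14.4, 8.33 and 0.210 CPM in control1 to control4. The log2 fold change of Rian in numbers 1 to 3 was -1.19 ± 0.22, with an adjusted p of 0.00873 by edgeR's quasi-likelihood test with Benjamini-Hochberg adjustment. Meg3 counts per Rian count were 1.26, 0.850 and 1.09 in KO1 to KO3, against 1.38, 1.34 and 1.76 in control1 to control3. In number 4 the ratio was 1.63 in KO4 and 0.333 in control4, the control value from 1 Meg3 count. Mirg, a microRNA host further along the domain, was listed at 0 in the 4 KO libraries and at 0.265, 0.450, 0.349 and 0 CPM in the controls, too few counts to be tested. Dlk1, a protein gene of the domain expressed from the paternal chromosome, was at 0 in the KO libraries and at most 0.112 CPM in the controls.

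Meg3 did not follow the osteoblast collagen gene Col1a1 in pairs 1 to 3. Col1a1 stood at 6050.2, 4581 and 4478 CPM in KO1 to KO3, against 2784, 7205 and 3711 CPM in control1 to control3, with the groups overlapping. It was 907 CPM in KO4 and 1761 CPM in control4. Of the 13 osteoblast markers 11 were tested in numbers 1 to 3, and 7 log2 fold changes were positive and 4 negative. Of the 12800 genes tested both there and over 8 libraries, 6287 were positive. For the osteoblast markers tested over 8 libraries, the median difference in log2 CPM was 0.98, -0.60, 0.09 and -0.65 in pairs 1 to 4. Meg3 counts per Col1a1 count lay between 0.000892 and 0.00140 in KO1 to KO3 and between 0.00269 and 0.00623 in control1 to control3. Markers of fibroblasts and muscle summed to 1414 to 2469 CPM in KO1 to KO3 and to 1882 to 4212 CPM in control1 to control3, with 1027 CPM in KO4 and 506 CPM in control4. Of these 8 markers 6 were tested, and all 6 had negative log2 fold changes in numbers 1 to 3, where 6513 of the same 12800 genes did. The median of the 6 was -0.65 and 0 were called. With the block in numbers 1 to 3, 4 of the 6 were called lower, Acta2, Tagln, Pdgfrb and Thy1, where 11.9% of all genes were, and over 8 libraries 1 of the 6, Pdgfrb, where 1.18% were. The part of these markers, and of the sex-linked transcripts by which KO4 and control4 differed, in the Meg3 result was not tested.

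**Figure D3:**
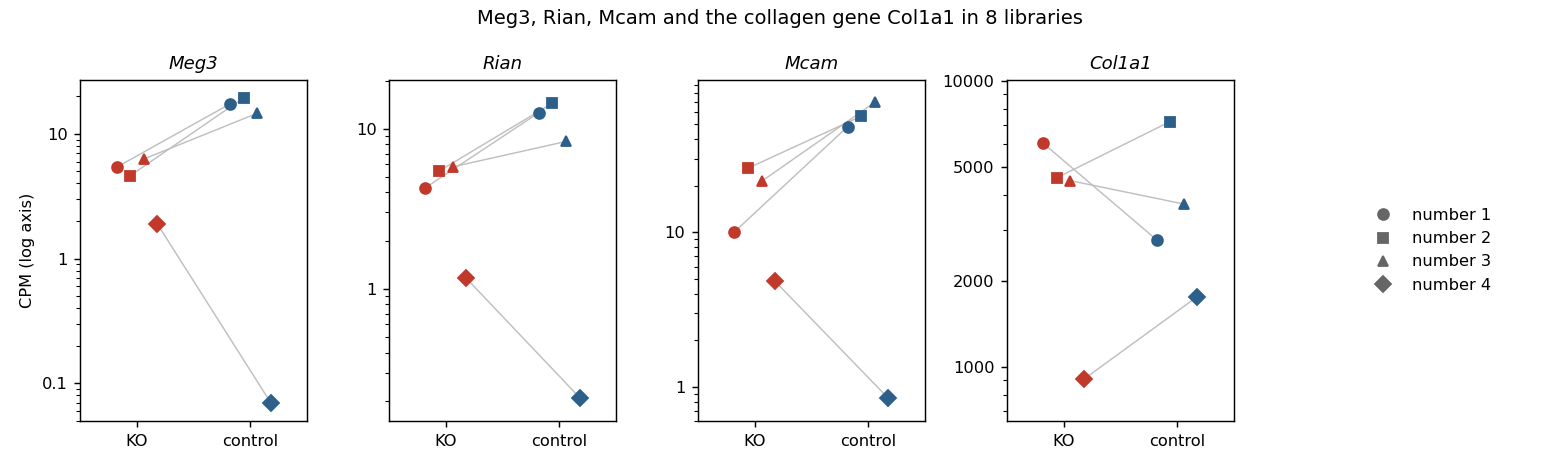
Levels of Meg3, Rian, Mcam and Col1a1 in CPM (log axes) in the 4 KO (red, left) and 4 control (blue, right) libraries, lines joining the same number. Meg3, Rian and Mcam lie lower in KO in pairs 1 to 3 and higher in KO in pair 4, while Col1a1 has no such order.

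H19 varied more within the groups than between them. The gene lies at chr7:142575529-142578143 on the minus strand of GRCm38, with 7 transcripts. It stood at 1.12, 1.58, 1.5003 and 8.30 CPM in KO1 to KO4, against 0.794, 9.44, 3.38 and 2.52 CPM in control1 to control4, from 15 to 168 counts. KO4 and control2 stood above all others, and the ratio within pairs was 1.41, 0.167, 0.444 and 3.30. The means were 3.12 ± 3.46 CPM in KO and 4.03 ± 3.76 CPM in control (SD, n = 4 each). The log2 fold change of -0.38 ± 0.88 had an adjusted p of 0.9999 by edgeR's quasi-likelihood test with Benjamini-Hochberg adjustment, and it turned to 0.48 without control2. Igf2, the growth factor gene 72622 bases away that shares its enhancers with H19, did not exceed 0.675 CPM in any library.

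Other imprinted genes showed no common direction. Of 28 in the list, 18 were tested over 8 libraries and 0 were called. Of the 18, 11 had a positive log2 fold change, as did 5993 of 12837 genes tested, and the median of the 18 was 0.12. Among the 19 tested in numbers 1 to 3, 3 were called higher and 0 lower, where 7.78% and 6.29% of all genes were. With the block in numbers 1 to 3, Sgce and Ndn were called lower as well, where 11.9% of all genes were. The 3 called higher were Peg10, a gene derived from a retrotransposon, Ppp1r9a, an actin-binding regulator of protein phosphatase, and Gatm, an enzyme of creatine synthesis. Peg10 stood at 11.04, 26.1, 17.2 and 1.53 CPM in KO1 to KO4, against 4.92, 8.43, 5.77 and 1.54 CPM in control1 to control4. Its KO values were above the control values in pairs 1 to 3 and level with them in pair 4. Ppp1r9a had a log2 fold change of 0.52 in numbers 1 to 3, with an adjusted p of 0.0257 by edgeR's quasi-likelihood test with Benjamini-Hochberg adjustment. Nnat and Mest, the other genes of smallest unadjusted p in the list, had log2 fold changes of -0.70 and 1.18 over 8 libraries and were not called.

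Gas5, which accumulates in growth-arrested cells and hosts C/D box snoRNAs, was lower in KO in numbers 1 to 3 and level in number 4. The gene lies at chr1:161034422-161038539 on the plus strand of GRCm38, with 25 transcripts, and overlaps Zbtb37 on the opposite strand. It stood at 36.2, 34.0, 36.7 and 71.5 CPM in KO1 to KO4, against 48.5, 52.0, 47.8 and 72.3 CPM in control1 to control4. Numbers 1 to 3 were tight within each group and did not overlap between them. The KO level was 0.747, 0.654, 0.768 and 0.988 times that of the control in pairs 1 to 4. The counting's use of strand is unstated in the sources used here, so Gas5 and Zbtb37 reads in the shared bases cannot be told apart. Zbtb37 had 74 to 215 counts against 584 to 1034 for Gas5.

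For Gas5 the log2 fold change in numbers 1 to 3 was -0.47 ± 0.07, with an adjusted p of 0.00321 by edgeR's quasi-likelihood test with Benjamini-Hochberg adjustment. Over 8 libraries it was -0.31 ± 0.27 without the block and -0.36 ± 0.10 with it, with adjusted p of 0.9999 and 0.115 by the same test. Without the block it was -0.63 when KO4 was left out and -0.15 when control4 was. The means over 8 libraries were 44.6 ± 17.9 CPM in KO and 55.1 ± 11.6 CPM in control (SD, n = 4 each). The exact permutation test gave p = 0.314.

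Snhg12, a host of snoRNAs of both classes, had the steadiest ratio of the 7 in pairs 1 to 3 but was not called. The gene lies at chr4:132308623-132311024 on the plus strand of GRCm38, with 10 transcripts. It stood at 3.54, 3.70, 3.78 and 6.85 CPM in KO1 to KO4, against 4.50, 4.72, 4.83 and 7.83 CPM in control1 to control4, from 57 to 112 counts. All KO values lay below those of the controls with the same number, at 0.786, 0.783, 0.782 and 0.874 times their level. In numbers 1 to 3 the log2 fold change was -0.35 ± 0.17, with an adjusted p of 0.217 by edgeR's quasi-likelihood test with Benjamini-Hochberg adjustment. With the block over 8 libraries it was -0.31 ± 0.14, with an adjusted p of 0.286 by the same test. Without the block it was -0.57 when KO4 was left out and -0.078 when control4 was.

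Snhg1, whose introns hold the U22 and other snoRNAs, showed no steady order. The gene lies at chr19:8723475-8726443 on the plus strand of GRCm38, with 18 transcripts. It stood at 5.58, 7.77, 7.39 and 13.9 CPM in KO1 to KO4, against 7.78, 6.97, 9.38 and 17.8 CPM in control1 to control4. KO was lower in pairs 1, 3 and 4 and higher in pair 2, and the groups overlapped with or without number 4. Over 8 libraries the log2 fold change of Snhg1 was -0.28 ± 0.39 and with the block -0.26 ± 0.14, with adjusted p of 0.9999 and 0.351 by edgeR's quasi-likelihood test with Benjamini-Hochberg adjustment. The 95% interval with the block was a fold of 0.664 to 1.05. Its neighbours Slc3a2, an amino acid transporter chain, and Wdr74, a ribosome assembly factor, had log2 fold changes of 0.03 and -0.13 over 8 libraries and were not called.

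The snoRNAs inside these hosts, which carry no poly(A) tail, were hardly counted. Snord22 in Snhg1 had 7 to 14 counts per library, Snord47 in Gas5 0 to 5, and Snora16a and Snora44 in Snhg12 0 to 8 each.

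Among 20 other snoRNA host genes, 18 were tested over 8 libraries and 0 were called with or without the block. Of these 18, 15 had negative log2 fold changes without the block, where 6844 of 12837 genes tested did. The median of the 18 was -0.15 against -0.02 over all genes. Epb41l4aos and Snhg8 were called lower in numbers 1 to 3, and 0 of the 18 higher, where 6.29% and 7.78% of all genes were called lower and higher. With the block in numbers 1 to 3, 4 of the 18 were called lower, where 11.9% of all genes were, and these added Zfas1 (-0.43) and Rabggtb (-0.30) on the log2 scale. Epb41l4aos stood at 3.16, 4.29, 4.28 and 5.46 CPM in KO1 to KO4, against 7.78, 6.07, 7.86 and 7.76 CPM in control1 to control4. It was the one host of the 18 whose groups did not overlap over 8 libraries, where 1.27% of all genes had no overlap with KO lower. Its log2 fold change of -0.78 ± 0.22 had an adjusted p of 0.572 by edgeR's quasi-likelihood test with Benjamini-Hochberg adjustment. Snhg8 stood at 2.92, 2.55, 3.50 and 8.08 CPM in KO1 to KO4, against 4.92, 4.44, 6.29 and 9.79 CPM in control1 to control4. It was lower in KO in each pair, and its log2 fold change in numbers 1 to 3 was -0.80 ± 0.22. Epb41l4aos, Zfas1, Snhg3, Snhg5, Snhg6, Snhg7, Snhg17 and Snhg20 were lower in KO in each pair as well. The rest of the 18 were not, where 13.4% of all genes tested were lower in each pair. Zfas1 was called in numbers 1 to 3 with the block only, with an adjusted p of 0.0377 by edgeR's quasi-likelihood test with Benjamini-Hochberg adjustment, and Snhg6 in none of these 4 models.

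TOP mRNAs that encode no ribosomal protein, with 18 in the list, are those of translation factors and other growth-linked proteins. They are listed for the TOP motif they are known to carry, and their starts were not examined here. Over 8 libraries without the block 0 of 18 were called, and 18 of 18 log2 fold changes were negative with a median of -0.36. Of all 12837 genes tested, 6844 were negative in that model. With the block 6 of 18 were called lower, namely Tpt1, Pabpc1, Eif3h, Rack1, Eef1b2 and Naca, where 1.18% of all genes were called lower. Among numbers 1 to 3, 11 of 18 were called lower, where 6.29% of all genes were. Tpt1, a growth-linked calcium-binding protein, stood at 989.6, 960.1, 947 and 1159.8 CPM in KO1 to KO4, against 1540.1, 1547, 1587 and 1460.3 CPM in control1 to control4. Its KO and control values did not overlap, where 1.27% of all genes had no overlap with KO lower. With the block the log2 fold change of Tpt1 was -0.60 ± 0.09, with an adjusted p of 0.0397 by edgeR's quasi-likelihood test with Benjamini-Hochberg adjustment. Eef2, the elongation factor that moves the ribosome along, stood at 2423, 2538, 2487 and 2701 CPM in KO1 to KO4, against 3761, 3699, 4028 and 3132 CPM in control1 to control4. Its values did not overlap either, and in numbers 1 to 3 its log2 fold change was -0.62 ± 0.07. Pabpc1, which binds poly(A) tails, and Eef1a1, which brings aminoacyl-tRNA to the ribosome, had log2 fold changes of -0.48 and -0.63 in numbers 1 to 3. Across the 4 pairs the median difference in log2 CPM of the 18 was -0.47, -0.42, -0.48 and -0.24, against -0.42, -0.61, -0.38 and -0.02 for Gas5.

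**Figure D4:**
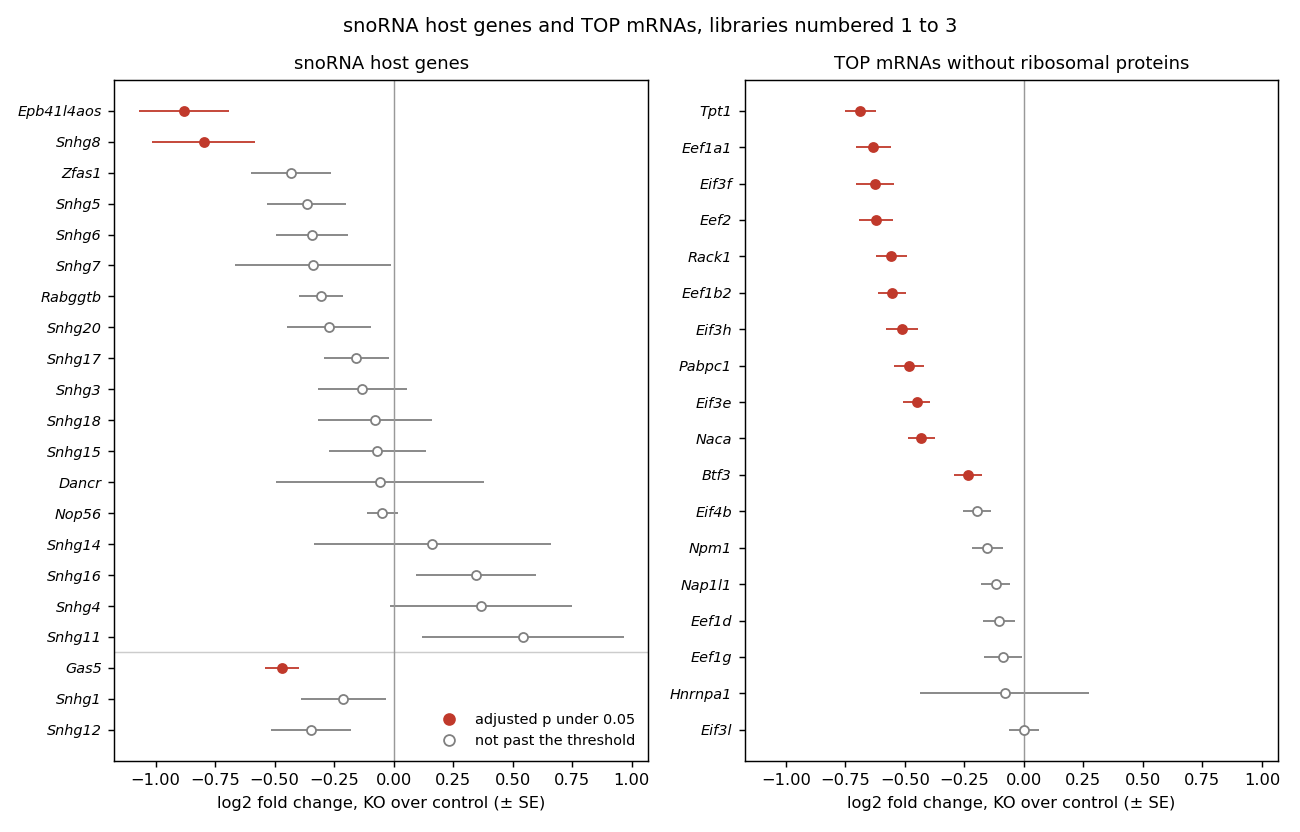
Log2 fold change, KO over control, with its SE in the libraries numbered 1 to 3, for 21 snoRNA host genes (left, the 3 described RNAs at the bottom) and 18 TOP mRNAs without ribosomal proteins (right). Filled red points passed the adjusted p threshold of 0.05, which were Gas5, Epb41l4aos and Snhg8 among the hosts and 11 of the TOP mRNAs.

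Of 20 proteins that assemble snoRNAs into particles, 0 were called without or with the block over 8 libraries, with a median log2 fold change of -0.07. Dkc1, the pseudouridine synthase of H/ACA particles, was called higher in numbers 1 to 3, with a log2 fold change of 0.35. Of 17 factors of nonsense-mediated decay, 0 were called over 8 libraries and the median was 0.02. Upf2, which helps to activate the helicase UPF1, was the single one called higher in numbers 1 to 3, with a log2 fold change of 0.26. Of 11 mRNAs known as targets of nonsense-mediated decay, 0 were called over 8 libraries, and the median was -0.08, and 1 was called higher in numbers 1 to 3, Tbl2, with a log2 fold change of 0.44. These are 1 of 20, 1 of 17 and 1 of 11, where 7.78% of all genes were called higher. With the block in numbers 1 to 3, 2 snoRNA particle proteins, 2 decay factors and 3 decay targets were called higher, where 12.3% of all genes were, and 1 decay target was called lower, where 11.9% were.

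Among 31 other long noncoding RNAs in the list, 27 were in the table and 19 were tested over 8 libraries, with 0 called and a median log2 fold change of -0.15. Mir22hg, Peg13 and Rian were called lower and Mirt1 higher among the 21 tested in numbers 1 to 3, where 6.29% of all genes were called lower and 7.78% higher. Mirt1 rested on 13, 17 and 16 counts in KO1 to KO3, against 1, 3 and 0 in control1 to control3. It had 2 counts in KO4 and 4 in control4, and was not among the 19 tested over 8 libraries. Peg13, an imprinted RNA, stood at 35.9, 30.8, 32.8 and 38.2 CPM in KO1 to KO4, against 59.0, 59.2, 56.5 and 23.4 CPM in control1 to control4. As for Meg3 and Rian, KO was lower in pairs 1 to 3 and higher in pair 4. Mir22hg, the host of miR-22, stood at 30.8, 28.7, 32.3 and 38.5 CPM in KO1 to KO4, against 43.7, 42.9, 41.5 and 37.6 CPM in control1 to control4, with the same order. Tug1 and 2900097C17Rik were more abundant by share of counts than Gas5 and near level between the groups, with log2 fold changes of 0.01 and 0.08. Tug1 stood at 114.0, 108.8, 104.9 and 60.4 CPM in KO1 to KO4, against 107.2, 107.8, 108.4 and 60.8 CPM in control1 to control4, so in contrast to Neat1 and Malat1 it was lowest in number 4.

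The genes most like each member were found by the root mean square difference of centred log2 CPM over the 8 libraries, among 7893 candidates whose mean log2 CPM reached 4. Small values mean alike. The pattern nearest to Neat1 was that of Rpl36a at 0.137 and then Rps15a at 0.170, both ribosomal protein genes, whose counts may share reads with processed copies. Rpl36a stood at 68.2, 66.6, 70.1 and 221.3 CPM in KO1 to KO4, against 113.8, 113.3, 116.2 and 259.6 CPM in control1 to control4. Like Neat1, it was tight in numbers 1 to 3 of each group, lower in KO in each pair and far higher in number 4. Malat1 lay nearest to Hexim1, an inhibitor of transcription elongation, at 0.0434. The nearest to Meg3 was Mcam, a surface glycoprotein of vascular and stromal cells, at 0.523, and then Smoc2, a matrix protein. Mcam stood at 10.05, 26.0, 21.4 and 4.81 CPM in KO1 to KO4, against 48.4, 56.6, 69.6 and 0.839 CPM in control1 to control4, with the direction of Meg3 in every pair.

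For the hosts the nearest patterns came from genes of protein synthesis and others. Snhg12 lay nearest to Naca at 0.0510 and Rpl11 at 0.0621, Gas5 to Gpr137 at 0.0608 and Rpl27 at 0.0673, and Snhg1 to Eif6 at 0.105 and Tomm40 at 0.114. The nearest to H19 was Clmp, an adhesion molecule, but at 0.824 this was not a close match. Among the members themselves Gas5 and Snhg12 were the closest pair at 0.0906, and Neat1 and Meg3 the farthest at 2.63. These values describe 8 libraries that share the high or low level of number 4, so likeness in them includes that level.

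Cell cycle genes were also compared between the groups. All 30 cell cycle genes in the list had positive log2 fold changes over 8 libraries, where 5993 of 12837 genes tested did. The median of the 30 was 1.05. Without the block 0 of them were called, and with it 4 were called higher, where 1.31% of all genes were. Their median difference in log2 CPM was 1.68, 0.92, 1.39 and 0.26 in pairs 1 to 4, and in pair 4, 5 of the 30 were lower in KO. In numbers 1 to 3, 24 of the 30 were called higher, where 7.78% of all genes were. Mki67, which proliferating cells express, had levels of 451, 477, 451 and 189 CPM in KO1 to KO4, against 99.6, 162.4, 118.7 and 129.0 CPM in control1 to control4. The groups did not overlap, which was not counted over all genes in this direction, and the distance was smallest in pair 4. The part of cell division in the levels of the 7 RNAs was not tested.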

How the data were processed

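Polyadenylated RNA of 8 libraries was analysed, 4 KO and 4 control, grouped and numbered by the sample titles. The authors deposited raw read counts, 1 whole number per gene symbol and library. STAR 2.7.11b, featureCounts 2 and the build GRCm38 (mm10) are named in the submitters' processing notes. Strand, annotation and the treatment of reads with several alignments are not given in the sources used here. Mitochondrial RNA was not analysed here.

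Counts were fitted with edgeR 4.0.16 in R 4.3.3 (filterByExpr, TMM factors, robust quasi-likelihood F test, genotype alone), over 12837 genes, with Benjamini-Hochberg adjustment over all of them and a threshold of 0.05. The SE is the log2 fold change divided by the root of F. CPM use the TMM-scaled library sizes, and a prior count of 2 was added for log2 CPM. Intervals are at 95%. Levels of the members were set against each other between groups by exact two-sided permutation of log2 CPM (scipy 1.17.1, Python 3.11.15), 7 in all and uncorrected. Alternatives were other scalings, no filter, DESeq2 1.42.0, limma-voom 3.58.1, the replicate number as a block, left-out libraries and numbers 1 to 3 alone. The scripts were tested on simulated data.

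Deviations from the group mean were compared between libraries of equal number. Their correlation across genes was 0.460 to 0.829, where unlike numbers gave -0.757 to 0.572. Among numbers 1 to 3 it was 0.145 to 0.369, where unlike numbers gave -0.263 to -0.012. Deviations from a mean of 3 sum to 0, so positive values for equal numbers go with negative ones for unlike numbers. Over 8 libraries KO1 correlated more with control2 (0.511) than with control1 (0.460), and control1 more with KO2 (0.489). All values for equal numbers exceeded 0.1, so libraries of equal number were treated as pairs. The pairing comes from the data, not from a label, and is an assumption of each blocked value.

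The members and all gene lists were chosen with earlier results of these data known. The genes named are the 7 members, up to 4 tested members of each list described with the smallest unadjusted p over 8 libraries without a block, the nearest genes in pattern to each member, and marker genes. Genes named outside this rule were named after their values were seen: those counted in full at a threshold or in each pair, Nono, Tug1, 2900097C17Rik, Col1a1, Dlk1, Mirg, Igf2 and flanking genes. Symbols were matched to GENCODE M21, and promoter sequences came from RefSeq. A further flanking gene is not reported here.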

Additional observations from a re-analysis of the deposited data

Results flagged for a closer look

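Of 14 groups of 4 libraries, 8 held a library whose log2 CPM lay far from the other 3 by Dixon's ratio, the gap to its nearest neighbour divided by the range of the group. Chance flags about 1 in 20 groups, and here all 8 flags fell on a library numbered 4, so they are not independent of each other. For Neat1 the ratio was 0.910 in KO4 (847 CPM) and 0.997 in control4 (1291 CPM), both above the rest. For Malat1 it was 0.908 in KO4 (1662 CPM), also above. Meg3 was flagged in control4, at 0.939, as the single low value (0.0699 CPM from 1 count). H19 was flagged in KO4 at 0.835 (8.30 CPM) and Gas5 in KO4 at 0.899 (71.5 CPM), both above the rest. Snhg12 was flagged in KO4 at 0.900 (6.85 CPM) and in control4 at 0.871 (7.83 CPM). Snhg1 was not flagged in either group.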

How the results depend on the processing

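Of the alternatives tried on the 7 log2 fold changes, 137 values kept their direction and their side of the threshold, 12 passed it and 12 turned. Numbers 1 to 3 with the block and the block without number 4 are the same fit, and this tally counts both. The genes called, 0 higher and 0 lower without the block, became 168 and 151 with the replicate block, 127 and 49 with DESeq2, 349 and 281 with limma-voom and the block, and 541 and 404 with DESeq2 and the block. In numbers 1 to 3 they were 1005 and 812, and 1593 and 1539 with the block, which is also the highest count with 1 number left out under the block (lowest 0 and 0). With 1 library left out and no block they ran from 0 to 25 higher and 0 to 13 lower, above 0 only without KO4 or control4. Neat1 passed the threshold with the replicate block (-0.83), in numbers 1 to 3 (-0.90, and -0.90 with the block), and with limma-voom and DESeq2 with the block (-0.84 and -0.83). Meg3 passed in numbers 1 to 3 (-1.65 without and -1.65 with the block), and so did Gas5 (-0.47 and -0.47). The block changed no other call among the 7. Malat1 turned with library totals alone (0.017), upper-quartile factors (0.0071) and no filter (0.0049), and its difference in log2 CPM with library totals alone (0.016), all within 0.02 of 0 and far inside its error. It also turned under the block without number 1 (0.0060) or number 3 (0.013), and H19 turned under the block without number 2 (0.39). With 1 library left out, Malat1 ran from -0.36 to 0.31, H19 from -1.52 to 0.48, Snhg1 from -0.60 to 0.10, Neat1 from -1.41 to -0.25, Meg3 from -1.91 to -1.23, Gas5 from -0.63 to -0.15 and Snhg12 from -0.57 to -0.078. For Meg3, limma-voom gave -0.34 without and -1.53 with the block, and DESeq2 -1.51 without and -0.73 with it. In edgeR the block without number 1, 2 or 3 gave -0.94, -0.69 and -1.04 for Meg3. The difference in log2 CPM ran from -0.29 to 0.23 for Malat1, -1.9996 to 0.23 for Meg3, -0.995 to 0.18 for H19 and -0.505 to 0.035 for Snhg1. The median log2 fold change ran from -0.38 to -0.0065 for other snoRNA hosts, 0.063 to 0.42 for imprinted genes and -0.17 to 0.10 for other long noncoding RNAs. The limma-voom and DESeq2 fits with the block and the left-out numbers were chosen after seeing the data. With 3 libraries against 4, no exact p can fall below 0.0571. The cause of these changes was not tested. Depth limits Meg3, H19 and Snhg12 most, with as few as 1, 15 and 57 counts in a library.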
